A study of Mus with 5 samples.

Results

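The genes described are 4 markers of the epicardium and of cardiac fibroblasts, *Wt1*, *Tcf21*, *Pdgfra* and *Dcn*. They were chosen by name and matched by Ensembl identifier, and all 4 were found among the 12857 genes with RNA-seq values in E14.5 mouse hearts. *Wt1* is used here for the gene only, and wild type hearts are called WT.

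RNA from hearts without atria was compared between WT embryos and *Nkx2.5* Cre/+*;Bmp2* tg/+ embryos, to see how expression changes when *Bmp2* is made throughout the myocardium. Each pool held the RNA of 4 hearts, and values were analysed for 3 transgenic pools and 2 WT pools. The authors excluded 1 further WT pool because it clustered apart from the others, and it was not analysed here. The WT pools used were thus kept for being alike, and the WT spread behind each comparison and p-value is that of pools selected in this way. In transgenic embryos, Cre expressed from *Nkx2.5* excises a floxed stop cassette in the *Rosa26* locus, and a CAG promoter there then drives *Bmp2* cDNA together with IRES-eGFP. The transgenic embryos thus also have a *Nkx2.5* Cre allele. The labels call the controls WT, but the cross described for this line gives non-transgenic littermates that carry the allele too, and whether the WT pools carry it was not tested. If they lack it, its effect and that of the transgene cannot be told apart. The level of *Bmp2* (ENSMUSG00000027358) was 23.0, 27.1 and 23.3 counts per 1000000 reads (CPM) across transgenic pools 1 to 3, against 14.1 and 10.2 CPM for WT pools 1 and 2. All 3 transgenic pools were therefore above both WT pools for the gene that the transgene carries.

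The epicardium is the cell layer that covers the heart. During mid-gestation some of its cells undergo an epithelial-mesenchyme transition, enter the myocardium and give rise to most fibroblasts of the ventricles and to cells of the coronary vessel wall. Fibroblasts then deposit the collagens and proteoglycans of the interstitial matrix, and mesenchyme of the valves, which comes in large part from endocardium, shares several of these genes.

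Read numbers recovered from the values were 10564780, 9442233 and 7931484 across transgenic pools 1 to 3, against 9351893 and 7427905 for WT pools 1 and 2. Every member was detected in all 5 libraries, on 167 to 1754 reads per library. Differences are log2 fold changes of transgenic against WT hearts on the log2(CPM + 0.5) scale, tested with limma. Benjamini-Hochberg adjustment of the p-values covered all 12857 genes, and a gene was called at an adjusted p of 0.05 or less. The separate pools are taken as replicates, with n = 3 transgenic and n = 2 WT pools throughout.

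*Wt1* (ENSMUSG00000016458, chr2:105126529-105173614 in the RefSeq annotation of GRCm38.p6) encodes a zinc-finger transcription factor that marks the epicardium and acts in its transition to mesenchyme. Its level was 20.6, 24.6 and 24.3 CPM across transgenic pools 1 to 3, against 27.1 and 22.4 CPM for WT pools 1 and 2. The groups overlapped: the lowest value was in transgenic pool 1 and the highest in WT pool 1, while WT pool 2 lay below transgenic pools 2 and 3. The mean was 23.1 ± 2.24 CPM (SD, n = 3) in transgenic and 24.7 ± 3.31 CPM (SD, n = 2) in WT hearts. The log2 fold change was -0.092 (standard error 0.11, 95% interval -0.33 to 0.15, limma adjusted p = 0.721), so *Wt1* was not called. Its sign depended on WT pool 1, without which the log2 fold change was 0.042. In bulk tissue, fewer cells of a type and less RNA per cell cannot be told apart, which applies to each of these markers.

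*Wt1* was read from 215, 229 and 194 reads in the transgenic pools and from 256 and 167 reads in the WT pools. Counting error alone gives exact 95% Poisson intervals of 23.9 to 30.6 CPM for WT pool 1 and 19.1 to 26.0 CPM for WT pool 2. These intervals overlap, so the WT pools did not differ clearly beyond counting error. On the fold scale, the 95% interval of the limma difference ran from 0.795 to 1.11.

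*Tcf21* (ENSMUSG00000045680, chr10:22817263-22820143) encodes a basic helix-loop-helix factor of epicardial cells and their progeny, needed for the fibroblast lineage of the heart. Its level was 28.7, 31.7 and 26.8 CPM across transgenic pools 1 to 3, against 26.3 and 30.6 CPM for WT pools 1 and 2. Here too the groups overlapped, with the lowest value in WT pool 1, the highest in transgenic pool 2 and the others between them. The means were 29.0 ± 2.47 CPM (SD, n = 3) in transgenic and 28.4 ± 2.99 CPM (SD, n = 2) in WT hearts. The log2 fold change was 0.030 (standard error 0.10, 95% interval -0.18 to 0.24, limma adjusted p = 0.914), and *Tcf21* was not called. The sign turned without transgenic pool 2, to -0.033, and without WT pool 1, to -0.076. The fold lay between 0.881 and 1.18 in the 95% interval. The long non-coding RNA gene *Gm10824* (chr10:22813381-22821942) spans *Tcf21* in the annotation. Whether reads were counted by strand is not given in the sources used here, so reads of these genes may not have been told apart.

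*Pdgfra* (ENSMUSG00000029231, chr5:75151322-75198206) encodes the alpha receptor for platelet-derived growth factors, present on fibroblasts and their epicardium-derived precursors and also on valve mesenchyme. Its level was 101.9, 92.0 and 105 CPM across transgenic pools 1 to 3, against 126 and 127 CPM for WT pools 1 and 2. All 3 transgenic pools were below both WT pools, with the lowest value in transgenic pool 2, and the WT pools were nearly equal. The mean was 99.7 ± 6.86 CPM (SD, n = 3) in transgenic hearts and 126 ± 0.814 CPM (SD, n = 2) in WT hearts. *Pdgfra* was downregulated, with a log2 fold change of -0.34 (standard error 0.066, 95% interval -0.48 to -0.20, limma adjusted p = 0.00919). The fold was 0.788, with a 95% interval from 0.715 to 0.868. The microRNA gene *Mir7025* (chr5:75176831-75176904) lies within *Pdgfra* in the annotation.

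The closest pools of the genotypes, transgenic pool 3 and WT pool 1, held 841 and 1191 reads of *Pdgfra*. Their exact 95% Poisson intervals, 98.2 to 112.5 CPM and 119 to 133 CPM, did not overlap, so the gap between these pools was larger than counting error. Of the 16 alternative settings, 13 also called the gene, with adjusted p-values from 0.000391 to 0.194 over all 16. The setting without a filter is counted among them, although the filter removed 0 genes and the fit was therefore the same. The call was lost when the variance trend was left out of limma (adjusted p = 0.194), without WT pool 1 (adjusted p = 0.171) and without WT pool 2 (adjusted p = 0.167), each with the gene still lower in transgenic hearts.

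*Dcn* (ENSMUSG00000019929, chr10:97479500-97518163) encodes decorin, a small leucine-rich proteoglycan that fibroblasts secrete and that binds collagen fibrils. Its level was 162 CPM in transgenic pool 1, 164 CPM in pool 2 and 177 CPM in pool 3, against 185 and 205 CPM in WT pools 1 and 2. The transgenic pools were again all below the WT pools, but transgenic pool 3 came close to WT pool 1. With 1418 and 1754 reads, the exact 95% Poisson intervals of those pools, 168 to 187 CPM and 177 to 194 CPM, overlapped. The mean was 168 ± 8.43 CPM (SD, n = 3) in transgenic and 195 ± 14.0 CPM (SD, n = 2) in WT hearts. The log2 fold change was -0.22 (standard error 0.063, 95% interval -0.35 to -0.085), with a limma p of 0.00324 before and 0.0736 after Benjamini-Hochberg adjustment. *Dcn* was thus not called. It was called in 2 of the 16 alternatives, among them that without transgenic pool 3 (limma adjusted p = 0.0396), within a range of 0.0210 to 0.498. That pool does not enter the difference in either of them.

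**Figure D1:**
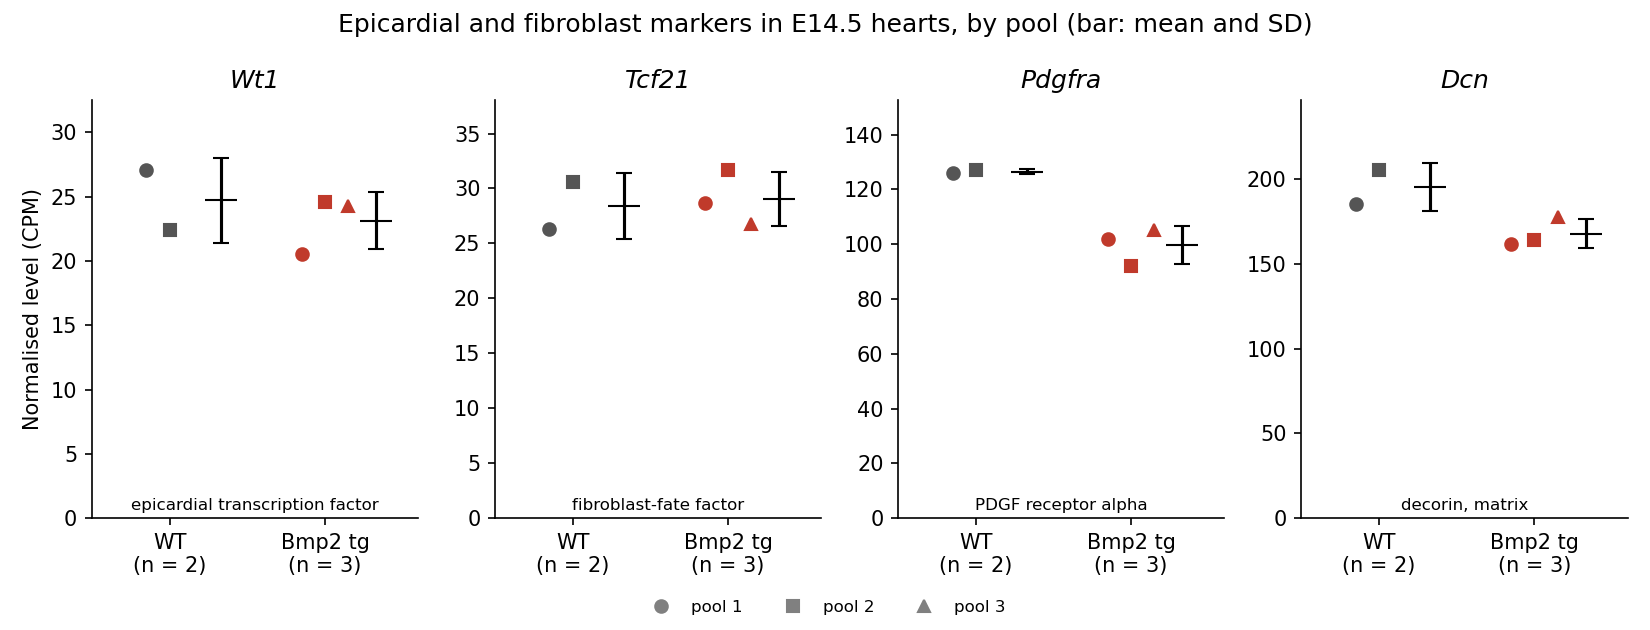
Level in counts per 1000000 reads (CPM, axes from 0) of *Wt1*, *Tcf21*, *Pdgfra* and *Dcn* in each WT pool (grey) and transgenic pool (red, Bmp2 tg). Symbols mark the pool number and the bars beside them the mean and SD of n = 2 WT or n = 3 transgenic pools; the groups overlap for *Wt1* and *Tcf21*, and all transgenic pools lie below both WT pools for *Pdgfra* and *Dcn*.

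Of the 4 genes, limma called 1, *Pdgfra*, lower in transgenic hearts, and 2 (*Pdgfra* and *Dcn*) had an unadjusted p under 0.05, as had 2275 of the 12857 genes. Of all genes, 205 (1.59%) were called lower, and 157 were called higher. With the libraries rescaled to equal totals this split was 251 lower and 125 higher. It turned to 9 lower and 36 higher without WT pool 1, and to 10 lower and 33 higher without WT pool 2. The 10 genes that limma called without the variance trend were all higher. For 2 of the 4 genes every transgenic pool was below both WT pools, which held for 2320 genes, or 18.0%, of the table. The median log2 fold change was -0.16 over the 4 genes and 0.0045 over all genes. A list of 4 genes is too short to set apart from these shares.

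In order of their log2 fold change, the genes ran from *Pdgfra* (-0.34) and *Dcn* (-0.22) to *Wt1* (-0.092) and *Tcf21* (0.030). The 95% intervals of neighbours in this order overlapped, whereas the interval of *Pdgfra* ended at -0.20 and that of *Tcf21* began at -0.18. The ratio of a pair of genes within a library does not change with the scaling of that library, apart from the pseudocount. The log2 ratio of *Tcf21* to *Pdgfra* was -1.81, -1.52 and -1.95 across transgenic pools 1 to 3, against -2.24 and -2.04 for WT pools 1 and 2. All transgenic pools were thus above both WT pools, with a difference of 0.37 between the means.

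The log2 ratio of *Tcf21* to *Dcn* was -2.47, -2.36 and -2.71 across transgenic pools 1 to 3, against -2.79 and -2.73 for WT pools 1 and 2. The groups were again apart, by 0.25 between the means, but transgenic pool 3 was close to the WT pools. For the other 4 pairs the groups overlapped. Among them, the log2 ratio of *Wt1* to *Tcf21* was -0.47, -0.36 and -0.14 across the transgenic pools, against 0.039 and -0.44 for the WT pools. WT pool 1 was above the other libraries in this ratio. In an exact permutation test over the pools, with the two-sided p taken as 2 times the smaller one-sided p, it was 0.2 for the ratios of *Tcf21* to *Pdgfra* and to *Dcn* and 0.4 or 0.6 for the other 4 pairs. Calculated in this way, 3 pools against 2 cannot give a p under 0.2, so the test could call none of the 6 ratios.

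Names could be given only to the members and to the genes that the study listed as changed in these libraries, so the genes named next are not independent evidence of a direction. *Pdgfra* and *Dcn* are on that list too. Of 20 epicardial markers, 3 had a name paired with an identifier, *Wt1*, *Tcf21* and *Tbx18*. *Tbx18* encodes a T-box factor of the epicardium that is also expressed in part of the ventricular and septal myocardium. Its level was 87.3, 88.1 and 86.2 CPM across transgenic pools 1 to 3, against 65.3 and 69.7 CPM for WT pools 1 and 2. All transgenic pools were above both WT pools. *Tbx18* was upregulated, with a log2 fold change of 0.37 (limma adjusted p = 0.00476). It was not called without WT pool 1 (limma adjusted p = 0.158), without WT pool 2 (0.0549) or without the variance trend (0.163), within a range of 0.000265 to 0.163 over the 16 alternatives. The summed level of the 3 epicardial genes was 137, 144 and 137 CPM across the transgenic pools, against 119 and 123 CPM for the WT pools, and *Tbx18* was the most abundant of them in CPM.

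Of 21 fibroblast and matrix genes, 7 could be named, among them *Tcf21*, *Pdgfra* and *Dcn*. The others encode a chain of a fibrillar collagen (*Col5a1*), chains of a collagen that forms beaded microfibrils (*Col6a2* and *Col6a3*) and the microfibril protein fibrillin (*Fbn1*). *Col6a2* was at 136, 128 and 128 CPM across transgenic pools 1 to 3, against 166 and 162 CPM for WT pools 1 and 2. *Col6a3* was at 84.6, 70.8 and 77.7 CPM across the transgenic pools, against 110 and 98.0 CPM for the WT pools. *Fbn1* was at 294, 258 and 278 CPM across the transgenic pools, against 338 and 325 CPM for the WT pools. For each of these 3 genes all transgenic pools were below both WT pools. They were downregulated, with log2 fold changes of -0.33, -0.42 and -0.26 for *Col6a2*, *Col6a3* and *Fbn1* and limma adjusted p-values of 0.00494, 0.00737 and 0.0275 in that order. *Col5a1* had a log2 fold change of -0.24 and was not called (limma adjusted p = 0.0508), but 9 of the 16 alternatives called it, with adjusted p-values from 0.0124 to 0.396.

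None of the calls of *Col6a2*, *Col6a3* and *Fbn1* held without WT pool 1 (limma adjusted p = 0.158, 0.227 and 0.295), without WT pool 2 (0.0936, 0.0622 and 0.211) or without the variance trend (0.170, 0.202 and 0.271). *Fbn1* was also lost without transgenic pool 2 (0.0666). Over the 16 alternatives the adjusted p-values of the 3 genes ranged from 7.65e-05 to 0.170, from 0.000186 to 0.227 and from 0.00984 to 0.295. The summed level of the 7 named fibroblast and matrix genes was 1139, 1040 and 1120 CPM across transgenic pools 1 to 3, against 1342 and 1311 CPM for WT pools 1 and 2. The sum was thus lower in each transgenic pool than in either WT pool, and *Col5a1* was its most abundant gene in CPM. All of the summed genes but *Tcf21* are on the study's list of genes changed in these libraries. The lower sum is therefore not independent evidence of a direction, and it does not stand for the genes of the list that could not be named.

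**Figure D2:**
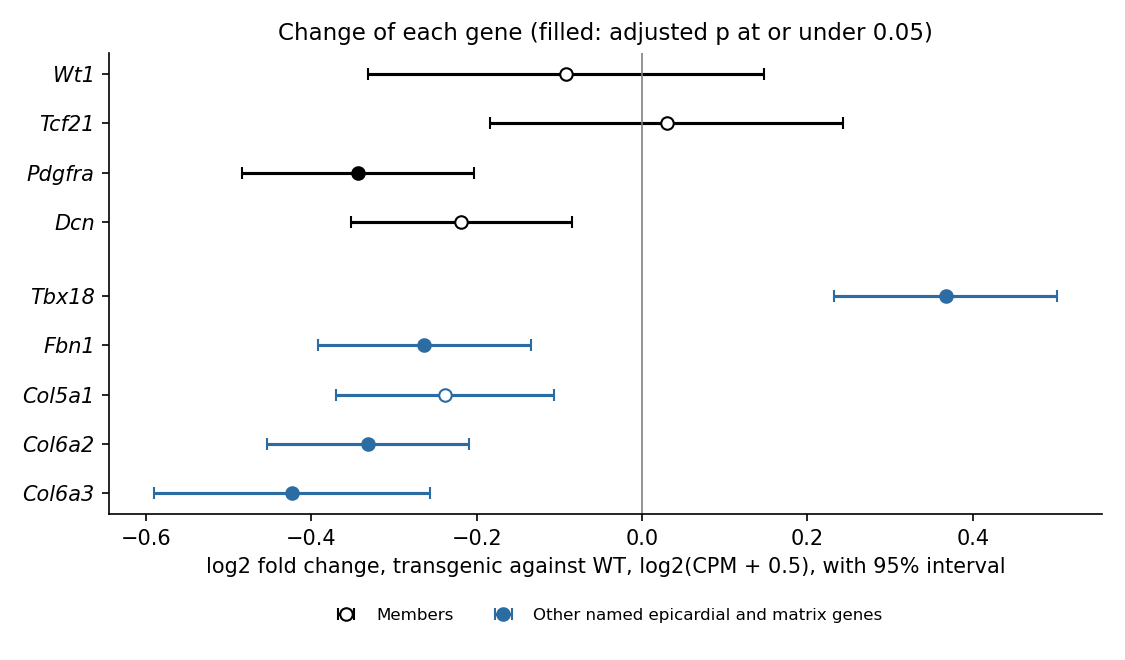
Log2 fold change of transgenic against WT hearts on the log2(CPM + 0.5) scale, with its 95% limma interval, for the 4 members (black) and 5 other named epicardial and matrix genes (blue), which the study had listed as changed in these libraries. Filled points have an adjusted p of 0.05 or less; *Pdgfra* (-0.34) and *Tbx18* (0.37) lie on opposite sides of 0, and the intervals of *Wt1* and *Tcf21* include 0.

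Of 7 ligands and receptors of the platelet-derived growth factors, *Pdgfra* and *Pdgfrb* could be named. *Pdgfrb*, the beta receptor of pericytes and smooth muscle, was at 77.1, 75.4 and 79.8 CPM across transgenic pools 1 to 3, against 90.5 and 92.4 CPM for WT pools 1 and 2. All transgenic pools were below both WT pools, with a log2 fold change of -0.24, and *Pdgfrb* was not called (limma adjusted p = 0.0519), though it was in 6 of the 16 alternatives, with adjusted p-values from 0.0406 to 0.331. Of 11 small leucine-rich proteoglycan genes, *Dcn* alone could be named.

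Values of markers of other cell types are given beside those of *Pdgfra* and the matrix genes. All that could be named had been listed by the study as changed in these libraries, so that they differ was set by this choice. Of 9 mural cell markers, 4 could be named, *Abcc9*, *Pdgfrb*, *Rgs5* and *Myh11*. Their summed level was 302, 285 and 327 CPM across transgenic pools 1 to 3, against 395 and 403 CPM for WT pools 1 and 2. *Abcc9* was the most abundant, at 164, 147 and 170 CPM across the transgenic pools, against 207 and 218 CPM for the WT pools. Which cells of these hearts express *Abcc9* was not tested, so the sum cannot be read as a level of mural cells. The sum was lower in every transgenic pool. *Abcc9*, *Rgs5* and *Myh11* were downregulated, with log2 fold changes of -0.41, -0.48 and -0.71 and limma adjusted p-values of 0.00282, 0.00890 and 0.0204.

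Of 11 endothelial and endocardial markers, 5 could be named, *Cdh5*, *Kdr*, *Tie1*, *Plvap* and *Sox18*. They summed to 562, 477 and 565 CPM across the transgenic pools, against 693 and 680 CPM for the WT pools, with *Cdh5* the most abundant. Every transgenic pool was below both WT pools in this sum. *Kdr*, *Tie1* and *Plvap*, which encode a receptor for vascular endothelial growth factor, an orphan receptor kinase and a protein of endothelial diaphragms, had log2 fold changes of -0.46, -0.31 and -0.72 (limma adjusted p = 0.00286, 0.0277 and 0.00109). *Cdh5* and *Sox18* were not called, with log2 fold changes of -0.25 and -0.41 (limma adjusted p = 0.0563 and 0.0661). Of the 16 alternatives, 6 called *Cdh5* (adjusted p from 0.00978 to 0.372) and 2 called *Sox18* (0.0364 to 0.427).

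Of 12 cardiomyocyte markers, *Myl7* and *Ryr2* could be named, and both were present in every library of these hearts. *Myl7*, the atrial myosin light chain that ventricles also express early in development, was at 653, 869 and 617 CPM across the transgenic pools, against 384 and 373 CPM for the WT pools. It was thus higher in each transgenic pool, with a log2 fold change of 0.90 (limma adjusted p = 0.000166). *Ryr2*, the calcium release channel of cardiomyocytes, was lower, at 480, 425 and 459 CPM across the transgenic pools, against 548 and 556 CPM for the WT pools, with a log2 fold change of -0.28 (limma adjusted p = 0.0175). Of 10 valve mesenchyme genes *Tbx20* alone could be named, a T-box factor that myocardium also expresses. It was at 948, 954 and 896 CPM across the transgenic pools, against 670 and 739 CPM for the WT pools, a log2 fold change of 0.41 (limma adjusted p = 0.00162).

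Of the 17 named genes other than the members, 13 were called, but 1 without WT pool 1 (*Myl7*), 2 without WT pool 2 (*Tbx20* and *Myl7*), 10 without transgenic pool 2 (not *Fbn1*, *Tie1* or *Myh11*) and 0 in limma without the variance trend. Without the trend, all 17 had an unadjusted p under 0.05 and limma adjusted p-values from 0.152 to 0.320. On the recovered reads, DESeq2 called 13, edgeR's quasi-likelihood test 14 and edgeR's exact test all 17. Over the whole table, limma called 362 of 12857 genes. All 17 could be named only because the study, which used edgeR, had listed them as changed in these libraries. How many are called was therefore largely set by this choice, and these counts are not independent evidence of a change. None of the 10 blood and immune markers or of the 4 Schwann and neural markers could be named, and these were not analysed here. The part of these other cell types in the values of *Pdgfra*, *Dcn* and the collagens was not tested.

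The genes most like each member in pattern over the 5 libraries were sought among 10089 other genes with a mean of at least 10 CPM. Closest to *Pdgfra* was *Epas1*, which encodes a hypoxia-inducible transcription factor, with a Pearson r of 0.9998 between log2 values. *Epas1* was at 56.7, 51.7 and 58.8 CPM across transgenic pools 1 to 3, against 69.6 and 70.1 CPM for WT pools 1 and 2. Like *Pdgfra*, it was lowest in transgenic pool 2 and nearly equal in the WT pools. An r above 0.99 was found with 37 genes for *Pdgfra*, 10 for *Dcn*, 5 for *Tcf21* and 3 for *Wt1*. The closest genes to *Dcn*, *Tcf21* and *Wt1*, with r of 0.999, 0.997 and 0.994, carry identifiers that the files do not pair with a name. With 5 libraries and so many genes searched, values of this size are a description of these libraries only.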

How the data were processed

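RNA of E14.5 hearts was pooled, made into Illumina libraries and sequenced as single-end reads. The authors removed adaptors with cutadapt, used RSEM with GRCm38 and Ensembl genes for quantification, and deposited CPM of 12857 genes, relative to library sizes that had been scaled. Each library column was matched to its pool by name, and 0 columns were left unused. The authors' own fold changes and p-values, in a supplementary list of 406 changed genes, were not used, only its names. The worth of 1 read was found from the steps between low values. All values (100%) were whole multiples of it to within 0.01 read, which gave back the reads. The smallest value above 0 was 7 reads in transgenic pool 1 and 3 in WT pool 2, so in these libraries no gene shows 1 read directly. For a count of 0 the upper limit was taken as 3 reads, or 0.287 to 0.402 CPM by library. This limit and the Poisson intervals cover counting error only.

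Log2(CPM + 0.5) was fitted with limma 3.58.1 (R 4.3.3, variance trend) over all genes with at least 1 CPM in 2 libraries, which removed 0 genes. On this scale the change of low genes is understated. The fit was tested on simulated data. As alternatives, the pseudocount was set to 0.1 or 1, the filter was dropped or raised to a mean of 5 CPM, and further fits used no variance trend, quantile normalisation, equal totals, edgeR 4.0.16 and DESeq2 1.42.0 on the recovered reads, a block for pool number, or all pools but 1. The edgeR quasi-likelihood test called 398 genes, its exact test 482 and DESeq2 229.

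The genes named are the 4 members and, where the supplementary list pairs a name with the identifier, genes of 10 marker lists and the 3 nearest in pattern to each member, of which only *Epas1* had a name. *Bmp2* is named as the transgene, and *Gm10824* and *Mir7025* because each overlaps a member. Ratios of *Wt1* to the other members were planned as values without a test. *Bmp2*, *Gm10824*, *Mir7025*, the other ratios and the exact test of all ratios were added after the values were seen. So were every alternative of a ratio but the pseudocounts of *Wt1* to *Tcf21*, and the alternatives of genes other than the members. The members and lists were chosen with earlier results of these data known. Positions are from RefSeq GRCm38.p6, matched by symbol.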

Additional observations from a re-analysis of the deposited data

How the results depend on the processing

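When single pools were left out, log2 fold changes ran from -0.23 to 0.042 for *Wt1* (0.042 without WT pool 1), from -0.076 to 0.14 for *Tcf21* (-0.076 without WT pool 1 and -0.033 without transgenic pool 2), from -0.38 to -0.29 for *Pdgfra* and from -0.29 to -0.15 for *Dcn*. Where 1 WT pool remained, it was assumed to vary like the transgenic pools. Limma without the variance trend, which by construction leaves the log2 fold change of *Pdgfra* at -0.34, did not call it (adjusted p = 0.194). None of the 16 alternatives called *Wt1* or *Tcf21*. The 362 genes called by limma over the table became 10 without the variance trend, 229 with DESeq2 and 655 with the replicate block, and from 43 (without WT pool 2) to 464 (without transgenic pool 3) with a pool left out. The cause of these shifts was not tested. Transgenic pool 3 has no WT pool of its number, so the replicate block also takes it out of the difference, and these 2 changes cannot be told apart in that fit. With it, *Dcn* was called (log2 fold change -0.26 in the block and without that pool, limma adjusted p = 0.0210 and 0.0396), and no other member changed its call. Pools of the same number had correlations of their deviations of -0.026 and -0.050, which gave no sign that they share more than a number. With 2 WT pools, whose deviations mirror each other, this check cannot exclude that they do. The log2 ratio of *Wt1* to *Tcf21* differed by -0.12 between genotypes, and by -0.36 to 0.12 with a pool left out. *Wt1* and *Tcf21* had 167 to 300 reads per library, with a counting SD of 1.40 to 2.02 CPM by library. Their SD between pools of a genotype was 2.24 to 3.31 CPM. The part of counting error in the missing calls was not tested.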
